A study of Mus musculus with 6 samples.

Results

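The genes described here are those of the glutathione, peroxiredoxin and thioredoxin systems, with the superoxide dismutases, catalase and the quinone reductase gene Nqo1. A gene was taken by its symbol in the platform annotation (Gst classes alpha to zeta, Gpx, Prdx, Txn, Gclc, Gclm, Sod1 to Sod3, Gsr, Gss, Cat, Nqo1, Srxn1 and Slc7a11). Only probe sets with 1 gene symbol counted, which gave 115 probe sets for 60 genes, of 45037 probe sets and 18193 named genes in all. Prdx1 shares every probe set listed for it with another symbol, and Prdx5 and Prdx6 are not named in the annotation used, so none of the 3 is among the 60. Each gene was read at its brightest probe set, the one with the highest mean over the 6 arrays.

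The arrays measured total RNA of retinas from mice about 4 weeks old, 3 arrays of wild type 129 mice and 3 arrays of prCAD -/- mice. The mutant mice lack photoreceptor cadherin, the product of Cdhr1, and the submitters call them a model for retinal degeneration. Each array held the pooled retinas of 3 mice, so every error below reflects the spread between pools, and no label names the strain of the mutant mice. Values are log2 levels. A difference of 1 is a 2-fold difference, and levels of different genes cannot be set against each other, because each probe set has its own response.

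These enzymes keep hydrogen peroxide, lipid peroxides and reactive electrophiles low. Glutathione is made from cysteine, glutamate and glycine by glutamate-cysteine ligase and glutathione synthetase, is spent by peroxidases and transferases, and is brought back to its reduced form by glutathione reductase with NADPH. Peroxiredoxins take up peroxide with a cysteine that thioredoxin restores, and thioredoxin reductase recharges thioredoxin, again with NADPH. Photoreceptors are rich in polyunsaturated lipids and respire heavily, so these systems are much studied in retinal degeneration. The transcription factor NRF2, encoded by Nfe2l2, raises many of these genes from antioxidant response elements.

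The core of that element, TGACNNNGC, was looked for on both strands from 250 bases before to 50 bases after each transcript start in RefSeq (GRCm38.p6). Of the 60 genes, 53 had such a sequence, and 10 of these (18.9%) held the core, against 14% of 27025 genes and 12.4% of 32851 promoters in the table. The stretches around it are shown for 6 genes of glutathione synthesis, the transferases, thioredoxin reductase and superoxide dismutase. These were chosen because the element is a known route by which such families are raised together. Srxn1, Txndc2, Txndc5 and Txndc11 also held the core and are not shown. Nqo1, Slc7a11, Gpx1 and Gsta2 were searched and did not hold it in this window. Capitals mark the core, or GCNNNGTCA where it lies on the other strand. A match describes the letters only and shows no binding.

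Gclm, chr3:122245397-122245457, + strand, core from 134 bases before the start: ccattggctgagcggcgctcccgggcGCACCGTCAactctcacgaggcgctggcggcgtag
Txnrd1, chr10:82859088-82859148, + strand, core from 92 bases before the start: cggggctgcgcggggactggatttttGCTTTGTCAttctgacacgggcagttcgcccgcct
Sod1, chr16:90220680-90220740, + strand, core from 56 bases before the start: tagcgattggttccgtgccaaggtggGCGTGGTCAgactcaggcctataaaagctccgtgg
Gstm5, chr3:107895786-107895846, + strand, core from 42 bases before the start: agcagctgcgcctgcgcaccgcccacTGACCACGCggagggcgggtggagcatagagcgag
Gstm7, chr3:107931709-107931769, - strand, core from 129 bases before the start: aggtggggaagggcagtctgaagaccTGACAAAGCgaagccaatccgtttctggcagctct
Gsta3, chr1:21240438-21240498, + strand, core from 121 bases before the start: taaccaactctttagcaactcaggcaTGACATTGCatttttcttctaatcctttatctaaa

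The group labels held at the targeted gene: Cdhr1 read 11.32, 11.36 and 10.98 in wild type and 3.94, 4.20 and 4.34 in mutant arrays (limma, adjusted p = 2.18e-05). Rod markers averaged 12.3 to 12.5 on every array (4 of 5 measured), with 1 of 4 higher in mutant arrays. Sag differed by 0.26 (SE 0.09), Pde6b by -0.24 (SE 0.12), Nrl by -0.19 (SE 0.11) and Gnat1 by -0.05 (SE 0.12). Cone markers, 1 of 5 higher, averaged 9.17 to 9.44 in wild type and 8.89 to 9.34 in mutant arrays. The arrays correlated with each other at 0.969 or more over all probe sets. The arrays numbered 3 stood apart most, with array weights of 0.386 (wild type) and 0.368 (mutant), where the other 4 lay between 0.806 and 3.30. Markers of the retinal pigment epithelium were higher in mutant arrays, 6 of 6, though Best1 by only 0.006 (SE 0.10). Their list means were 5.77 to 6.67 in wild type, lowest in replicate 3, and 7.10 to 7.47 in mutant. Ttr differed most, by 2.27 (SE 0.78), and read 9.03, 8.32 and 5.68 in wild type. Lens markers, 6 of 7 higher, averaged 8.63 to 9.92 and 9.28 to 10.1, lowest in wild type replicate 3. Ganglion cell markers, 0 of 4 higher, averaged 6.76 to 6.96 in wild type and 6.32 to 6.48 in mutant arrays, while astrocyte markers, 2 of 3 higher, averaged 5.39 to 5.82 and 6.05 to 6.45, with Gfap at a difference of 1.60 (SE 0.32, adjusted p = 0.791). In all these marker lists 0 genes passed. Whether such tissue bears on the values below was not tested. In whole retina, fewer cells of a type and less RNA per cell cannot be told apart.

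None of the 60 genes passed the test between mutant and wild type. At an adjusted p under 0.05 over all probe sets, limma called 0 of 60, where it called 0.0165% of all named genes. At an unadjusted p under 0.05, 1 of the 60 (Gsta2) lay higher, against 2.33% of all genes, and 0 lay lower, against 1.09%. Of the 115 probe sets 1 had an unadjusted p under 0.05, against 3.02% of all probe sets, and the smallest adjusted p among them was 1.00. Counts of 0 and 1 among 60 genes or 115 probe sets are too small to set these shares apart from those of the background.

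The differences were also small. They ran from -0.18 (Gstt3) to 0.32 (Gpx1), with a median of 0.07, beside a median of 0.02 over all named genes. The 95% interval of the difference lay within a 2-fold change in either direction for all 60 genes, as for 98.1% of all genes. It lay within a 1.5-fold change for 51 of 60, as for 86.6% of all genes. The 9 with wider bounds were Gpx1, Gpx7, Gpx8, Gclc, Gsta3, Gstm1, Gstt2, Gstz1 and Cat. These intervals are those of single genes, not corrected for their number.

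**Figure D1:**
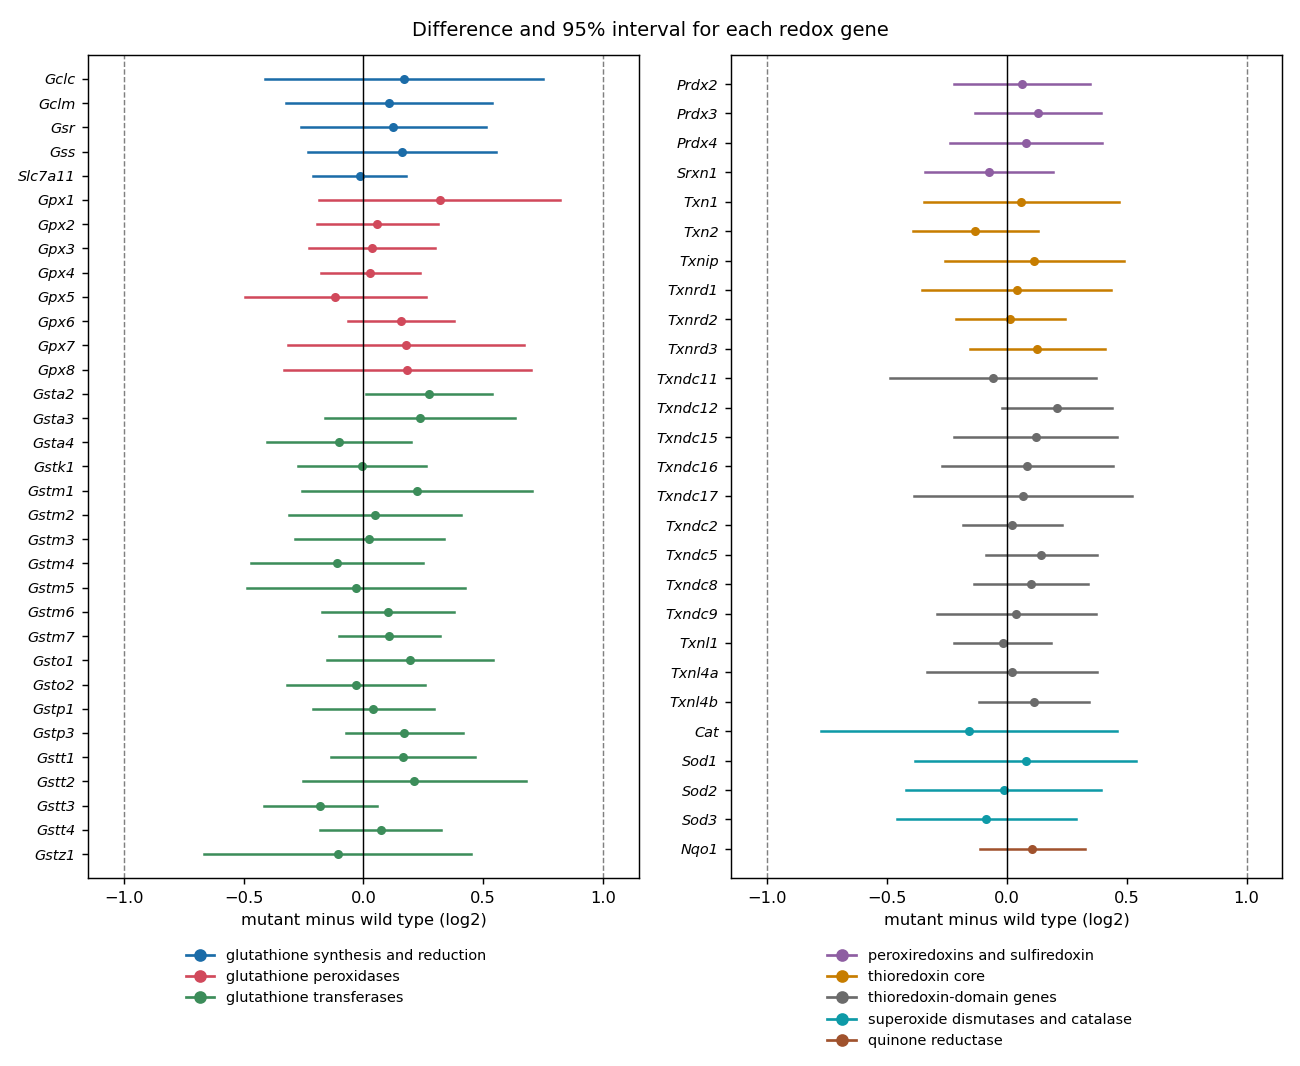
Mutant minus wild type difference on the log2 scale for each of the 60 genes (points) with its 95% interval from limma (lines), coloured by family, with dashed lines at a 2-fold change. Every interval lies between the dashed lines, and 1 of them, that of Gsta2 (0.01 to 0.53), leaves out 0.

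Of the 60 genes 44 (73.3%) lay on the higher side in mutant retina, as did 58.4% of all genes. The median difference was 0.07 with wild type replicate 3 and 0.00711 without it. Leaving out wild type replicate 2 gave 0.12. Leaving out mutant replicate 2 gave 0.02, and leaving out mutant replicate 3 gave 0.11. With both arrays numbered 3 left out it was 0.05. Within the pairs of same-numbered arrays the medians were 0.04, 0.05 and 0.08. Groups did not overlap, with all mutant arrays higher, in 1 gene (Gstp3), against 5.89% of all genes, and with all lower in 0, against 2.88%. Within the pairs of same-numbered arrays, 18 of 60 (30.0%) were higher in mutant in all 3, against 20.0% of all genes, and 3 (5.0%) were lower in all 3, against 11.4%.

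Genes that make and restore glutathione had a median difference of 0.12 over 5 genes, and 0 passed. Gclc, the catalytic subunit of glutamate-cysteine ligase, read 6.19, 6.31 and 6.19 in wild type and 6.12, 6.07 and 7.01 in mutant arrays. Its difference of 0.17 (SE 0.25) rested on mutant replicate 3, and without that array it was -0.14. At its dimmer probe set that array read 5.99, within the range of the others, and the difference was 0.14 (SE 0.16). That difference lay in the third pair, where wild type replicate 3 was lowest of all arrays, at 5.52. The pair differences at this probe set were -0.006, -0.04 and 0.47.

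Gclm, the modifier subunit, read 6.40, 6.39 and 6.73 in wild type and 6.37, 6.49 and 6.98 in mutant arrays, so the arrays numbered 3 were highest in each group. The difference was 0.11 (SE 0.18) here and -0.23 (SE 0.10) at a dimmer probe set. Gss, glutathione synthetase, differed by 0.16 (SE 0.17) and Gsr, glutathione reductase, by 0.12 (SE 0.16). Both had the opposite sign at a dimmer probe set, Gss at -0.15 (SE 0.14) and Gsr at -0.03 (SE 0.13). Slc7a11, the cystine importer that is a sensitive NRF2 target in many cells, lay between 3.01 and 3.10 on all 6 arrays. Those levels lie under 4.76, the median of all values in the table, where background signal limits what a probe set can show.

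Glutathione peroxidases reduce peroxides with glutathione. Their median difference was 0.11 over 8 genes, of which 7 lay higher and 0 passed. Gpx1, the widespread cytosolic enzyme, read 7.38, 7.82 and 7.20 in wild type and 7.73, 8.13 and 7.50 in mutant arrays. The groups overlap, but every mutant array lay above the wild type array of its number, by 0.34, 0.32 and 0.30. The difference of 0.32 (95% interval -0.18 to 0.82) is 1.25-fold, and no other of the 60 genes differed more. With the replicate number as a block its SE fell from 0.21 to 0.08 and its unadjusted p from 0.179 to 0.00651, but the adjusted p was 0.519.

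Gpx4, which reduces lipid peroxides in membranes and protects against ferroptosis, had an SE of 0.09, against a median SE of 0.13 over the 60 genes. It read 9.96, 10.01 and 10.07 in wild type and 9.98, 10.09 and 10.06 in mutant arrays. The difference was 0.03, with a 95% interval from -0.18 to 0.23, and 0.08 (SE 0.09) at its other probe set. Gpx3, the secreted enzyme, differed by 0.04 (SE 0.11). Gpx6 (0.16, SE 0.09) and Gpx7 (0.18, SE 0.21) lay below the median level in both groups.

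Glutathione transferases join glutathione to electrophiles and form the largest family, with 20 genes. Their median difference was 0.06, 13 lay higher and 0 passed. By class the medians were 0.24 (alpha, 3 genes), 0.05 (mu, 7 genes), 0.08 (omega, 2 genes), 0.11 (pi, 2 genes) and 0.12 (theta, 4 genes). The single kappa and zeta genes, Gstk1 and Gstz1, differed by -0.005 and -0.11.

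Gsta2, an alpha class gene, read 2.54, 2.82 and 2.60 in wild type and 2.97, 3.00 and 2.80 in mutant arrays. Every mutant array lay above its same-numbered partner, though the groups overlap narrowly. The difference was 0.27 (SE 0.11, unadjusted p = 0.0446, adjusted p = 1.00). All 6 levels are far below the median of 4.76, and alpha class genes are close in sequence, so a probe set of this family may not read Gsta2 alone.

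Gstp1, the pi class enzyme, read 9.94, 10.19 and 10.09 in wild type and 10.09, 10.23 and 10.02 in mutant arrays. The groups lie on top of each other, at a difference of 0.04 (SE 0.11). Gstp3 was the gene whose groups did not overlap. It read 4.21, 4.34 and 4.03 against 4.39, 4.35 and 4.35, a difference of 0.17 (SE 0.10, adjusted p = 1.00). Gstt3, of the theta class, differed by -0.18 (SE 0.10), was lower in all 3 pairs, and is dim too. Gstm1, a mu class enzyme, differed by 0.22 (SE 0.20) at a probe set of the kind that can bind related transcripts, and by 0.01, 0.12 and 0.14 at its other probe sets.

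Peroxiredoxins and sulfiredoxin, which repairs overoxidised peroxiredoxin, had a median difference of 0.07 over 4 genes, and 0 passed. Prdx2, a cytosolic enzyme also abundant in red cells, read 9.37, 9.41 and 9.05 in wild type and 9.36, 9.39 and 9.26 in mutant arrays. The arrays numbered 1 and 2 are level between the groups, and the difference of 0.06 (SE 0.12) lies in the third pair. Prdx3, the mitochondrial enzyme, differed by 0.13 (SE 0.11) and Prdx4, the enzyme of the endoplasmic reticulum, by 0.08 (SE 0.13). Srxn1, encoding sulfiredoxin, differed by -0.07 (SE 0.11).

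In the thioredoxin core 0 of 6 genes passed, at a median difference of 0.05. Txn1, cytosolic thioredoxin, read 8.11, 8.55 and 8.44 in wild type and 8.19, 8.70 and 8.39 in mutant arrays, a difference of 0.06 (SE 0.17). Txn2, mitochondrial thioredoxin, read 9.03, 9.13 and 9.23 against 8.90, 9.17 and 8.92. Its difference was -0.13 (SE 0.11), but 0.04 and -0.02 at its other probe sets. The reductase genes Txnrd1, Txnrd2 and Txnrd3 differed by 0.04 (SE 0.17), 0.01 (SE 0.10) and 0.13 (SE 0.12). Txnip, which binds and inhibits thioredoxin and is raised by glucose, differed by 0.11 (SE 0.16).

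Genes named for a thioredoxin domain numbered 12, of which 10 lay higher and 0 passed, at a median difference of 0.08. Many of them fold proteins in the endoplasmic reticulum and do not act on peroxide. Txndc12 differed by 0.21 (SE 0.10), Txndc5 by 0.14 (SE 0.10) and Txnl4b, a gene related to a spliceosome protein, by 0.11 (SE 0.10). Higher in all 3 pairs were 6 of the 12: Txndc12, Txndc5, Txnl4b, Txndc8, Txndc9 and Txndc17. The same held for 20.0% of all named genes, and whether the family differs from that share was not tested. Some pair differences were very small, at 0.08, 0.01 and 0.03 for Txndc9 and 0.005, 0.04 and 0.16 for Txndc17. Other probe sets gave -0.11 and -0.27 for Txndc9, 0.08, 0.02 and 0.21 for Txndc17 and 0.08 for Txndc5.

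Superoxide dismutases turn superoxide into peroxide, and catalase breaks peroxide down. This was the only family of more than 1 gene with a median below 0 (-0.05, 4 genes), and 0 passed. Sod1, the copper and zinc enzyme of the cytosol, read 9.93, 9.84 and 9.44 in wild type and 10.05, 9.94 and 9.45 in mutant arrays. The arrays numbered 3 were low in both groups, by more than the difference between groups of 0.08 (SE 0.20). Its 4 dimmer probe sets differed by 0.26, 0.13, -0.05 and -0.18.

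Sod2, the manganese enzyme of mitochondria, read 8.67, 8.96 and 8.49 against 8.52, 8.99 and 8.56, a difference of -0.01 (SE 0.17). Cat, encoding catalase, read 5.42, 5.60 and 4.97 against 5.27, 5.58 and 4.66. It was lower in all 3 pairs, with a difference of -0.16 (SE 0.26) and the lowest level on the arrays numbered 3. Without mutant replicate 3 the difference was 0.10, and at the dimmer Cat probe set it was 0.18 (SE 0.34). Sod3, the secreted enzyme, differed by -0.09 (SE 0.16).

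Nqo1, the quinone reductase often used as a readout of NRF2, read 3.66, 3.68 and 3.77 in wild type and 3.84, 3.89 and 3.70 in mutant arrays. The groups overlap, the difference was 0.11 (95% interval -0.11 to 0.33), and all levels lie below the median of 4.76. In all, 14 of the 60 genes lay below that median in both groups, 8 of them transferases, and for these background limits the difference.

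**Figure D2:**
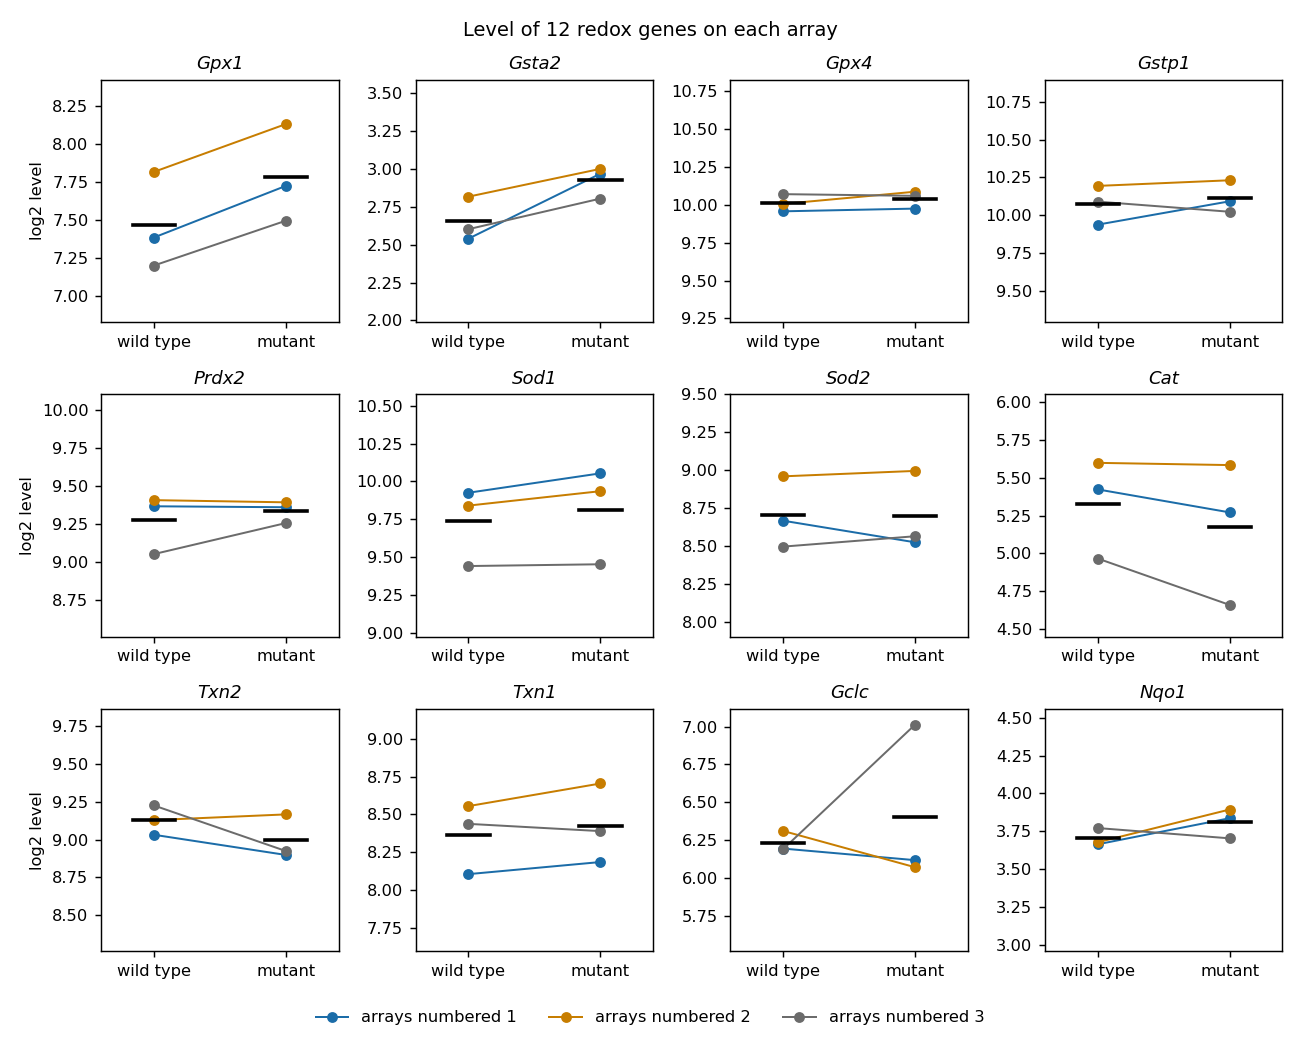
Log2 level (vertical axis, the same span of 1.6 in every panel) of 12 genes on each array, with wild type at the left and mutant at the right, lines joining arrays of the same number and black bars at the group means. Gpx1 is higher in mutant along all 3 lines, by 0.30 to 0.34, Sod1 and Cat are lowest on the arrays numbered 3 in both groups, and the high mutant Gclc value is 1 array.

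Arrays of the same number tended to lie on the same side of their group means. The range of the 3 pair means had a median of 0.29 over the 60 genes and 0.22 over all named genes. The widest ranges were those of Cat (0.78), Gstz1 (0.66), Gpx1 (0.63), Gpx8 (0.59), Gstm5 (0.55), Gpx7 (0.54) and Sod1 (0.54).

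The arrays numbered 3 were lowest in both groups for 24 of the 60 genes (40.0%), among them Gpx1, Sod1, Cat, Prdx2, Txnrd1 and Txnip, as for 36.6% of all genes. They were highest in both groups for 3 genes (5.0%), Gclm, Gstm3 and Gstt3, as for 11.96% of all genes. Across the 60 genes, deviations from the group means on same-numbered arrays correlated at 0.649, 0.466 and 0.455. Between arrays of different numbers the correlations ran from -0.458 to -0.09. Deviations within a group sum to 0, which alone pulls these values down when those on same-numbered arrays are above 0. All these correlations are descriptions across genes, which share arrays and are not independent.

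**Figure D3:**
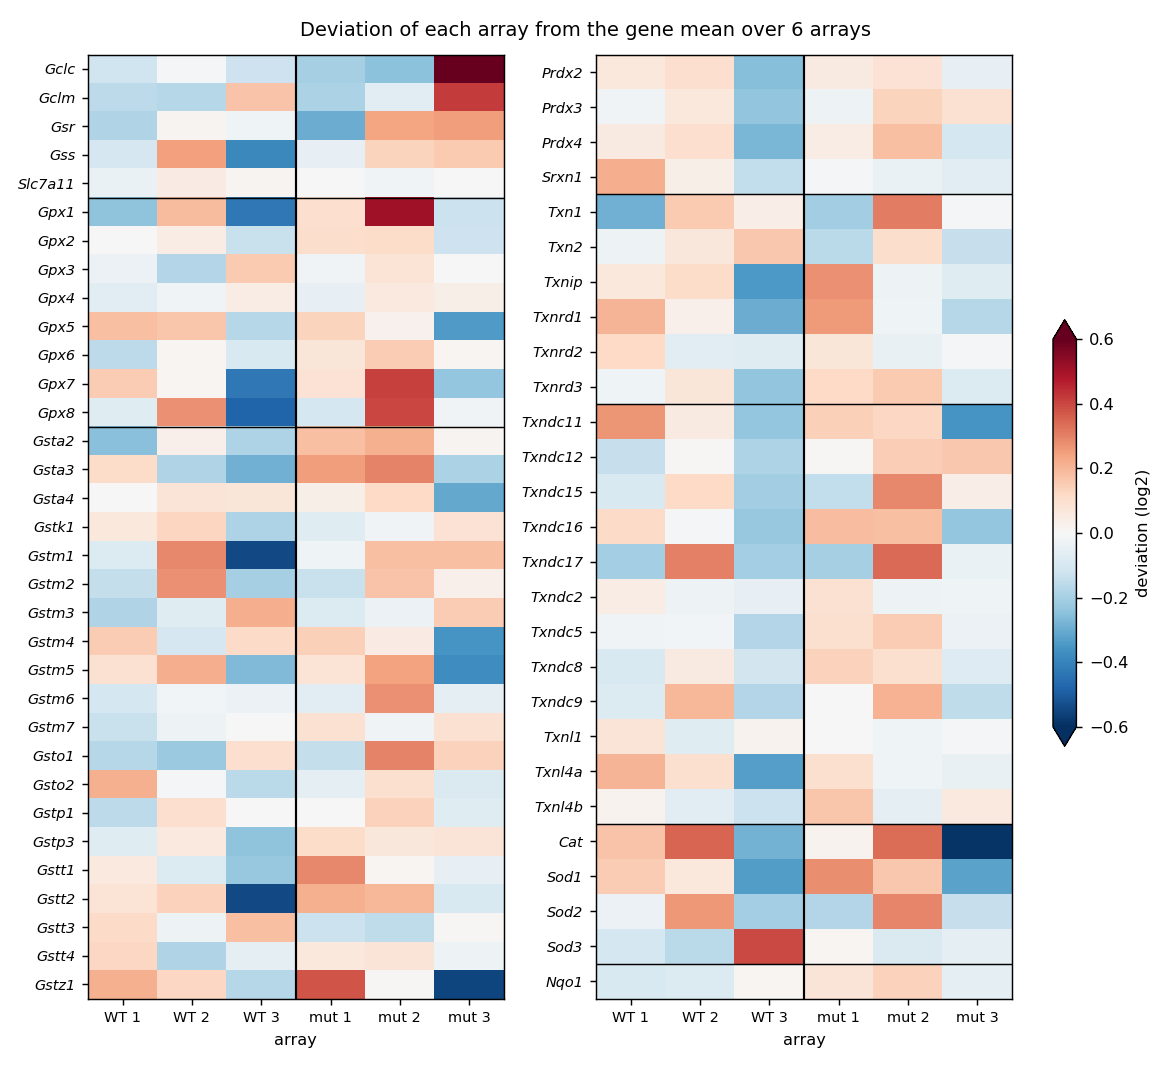
Deviation of each array from the mean over 6 arrays (colour, log2 scale) for the 60 genes, grouped by family with black lines between families. The columns of arrays numbered 3 are blue in many genes of both groups, such as Sod1 and Cat, and no family is of 1 colour on all mutant arrays and of the other on all wild type arrays.

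With the replicate number as a block, again 0 of 60 genes passed, against 0.044% of all named genes. At an unadjusted p under 0.05 there were 2, Gpx1 and Gsta2, both higher (3.33%), against 7.44% of all genes. The blocked 95% intervals lay within a 1.5-fold change for 58 of 60, as for 94.7% of all genes. The exceptions were Gclc and Gstm1.

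Other probe sets gave no further calls. Of the 60 genes 31 had more than 1 probe set, and 22 of their 55 other probe sets differed in the opposite direction from the brightest. None of the 55 had an unadjusted p under 0.05, and 5 (9.09%) had one with the block, against 7.6% of all probe sets: a Txnl1 probe set (-0.30), those of Txndc9 (-0.27), Gclm (-0.23), Prdx4 (0.24) and Txndc17 (0.21). Their adjusted p with the block ran from 0.611 to 0.657.

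Genes that work with these enzymes were read from 7 further lists, of which 72 of 78 genes were measured. Of the 72, 0 passed. At an unadjusted p under 0.05, 3 (4.17%) were higher, against 2.33% of all genes, and 0 were lower, against 1.09%. The median difference was 0.04. With the block 0 passed, and 7 (9.72%) were higher at an unadjusted p under 0.05, against 4.88% of all genes. On the lower side there were 0, against 467 of 18193 named genes. Whether these shares differ from those of all genes was not tested.

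In the NRF2 list 13 of 18 genes (72.2%) lay higher, at a median of 0.06, against 58.4% of all genes. Whether the list differs from that share was not tested. Nfe2l2 itself read 5.88, 5.83 and 6.01 in wild type and 6.09, 6.20 and 6.13 in mutant arrays. The groups do not overlap, but the difference of 0.24 (SE 0.09, unadjusted p = 0.0371) had an adjusted p of 1.00, and its dimmer probe set differed by 0.02 (SE 0.14). Keap1, which holds NRF2 down, differed by -0.01 (SE 0.09), and by -0.24 (SE 0.15) at its dimmer probe set. Abcc4, an exporter of conjugates, differed by 0.38 (SE 0.14) at dim levels of 3.32 to 4.00, and Aldh1a1 by 0.25 (SE 0.14). Hmox1, haem oxygenase, named after its values were seen because it had the largest difference of the list, read 5.96, 6.61 and 5.65 against 5.73, 7.33 and 6.33. Its arrays spread widely and the difference was 0.39 (SE 0.42).

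Genes of glutathione turnover and cysteine supply had a median of -0.01 over 14 genes. Slc1a1, a glutamate and cysteine importer of neurons, read 7.62, 7.67 and 7.13 in wild type and 7.94, 7.99 and 7.68 in mutant arrays. All 3 mutant arrays lay above the wild type arrays, by a mean of 0.39 (SE 0.17, adjusted p = 1.00, and 0.472 with the block). The groups barely separated, at 7.676 for the lowest mutant and 7.674 for the highest wild type array. Of all genes 5.89% had groups apart in that direction. At its other probe sets it differed by 0.30 (SE 0.14) and 0.10 (SE 0.22). Slc7a10, an amino acid exchanger, differed by 0.25 (SE 0.11) and Cth, an enzyme of cysteine synthesis, by -0.23 (SE 0.19).

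Among 8 genes of selenoprotein making the median was -0.003, while Selenop, the selenium carrier protein, had the largest difference of all 72. It read 7.76, 7.77 and 7.09 in wild type and 8.59, 7.98 and 7.75 in mutant arrays, so the groups overlap narrowly. The difference was 0.57 (SE 0.27, adjusted p = 1.00, and 0.479 with the block). Sephs1 and Sephs2, which make selenophosphate, differed by -0.13 (SE 0.13) and -0.11 (SE 0.10). Their other probe sets ran from -0.17 to 0.05.

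NADPH suppliers had a median of 0.06 over 9 genes, with Idh2 at 0.16 (SE 0.10), Me1 at -0.07 (SE 0.10) and Me2 at -0.08 (SE 0.14). A second, dimmer Me1 probe set went the other way, by 0.25 (SE 0.11, adjusted p with the block 0.621), with groups that do not overlap. Other probe sets gave -0.32, -0.12 and -0.33 for Me2 and -0.01 for Idh2. Glutaredoxins and methionine sulfoxide reductases had a median of 0.08 over 8 genes, with Glrx at -0.19 (SE 0.13), Msrb2 at 0.15 (SE 0.16) and Glrx2 at 0.11 (SE 0.14). Other Glrx2 probe sets gave -0.14 and -0.11. Microsomal transferases and their membrane relatives had a median of 0.08 over 6 genes, with Mgst1 at 0.33 (SE 0.17), Mgst2 at 0.11 (SE 0.10) and Alox5ap at -0.26 (SE 0.26). The other Mgst1 probe set gave -0.03.

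Oxidant sources had a median of 0.03 over 9 genes. Cyba, a subunit of the phagocyte NADPH oxidase, read 4.88, 5.01 and 4.81 against 5.29, 5.11 and 5.06, a difference of 0.26 (SE 0.10, adjusted p = 1.00) with groups that do not overlap. Its partner Cybb differed by 0.12 (SE 0.10) with overlapping groups, and at dimmer probe sets by 0.08 (SE 0.14) and 0.28 (SE 0.09). At the last of these the groups did not overlap (unadjusted p = 0.0144, adjusted p = 1.00). Ncf1, another partner, differed by -0.09 (SE 0.09), and at dimmer probe sets by -0.15 and 0.03. Microglia markers, 5 of 5 higher, averaged 4.98 to 5.06 in wild type and 5.17 to 5.38 in mutant arrays, and their part in the Cyba value was not tested.

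**Figure D4:**
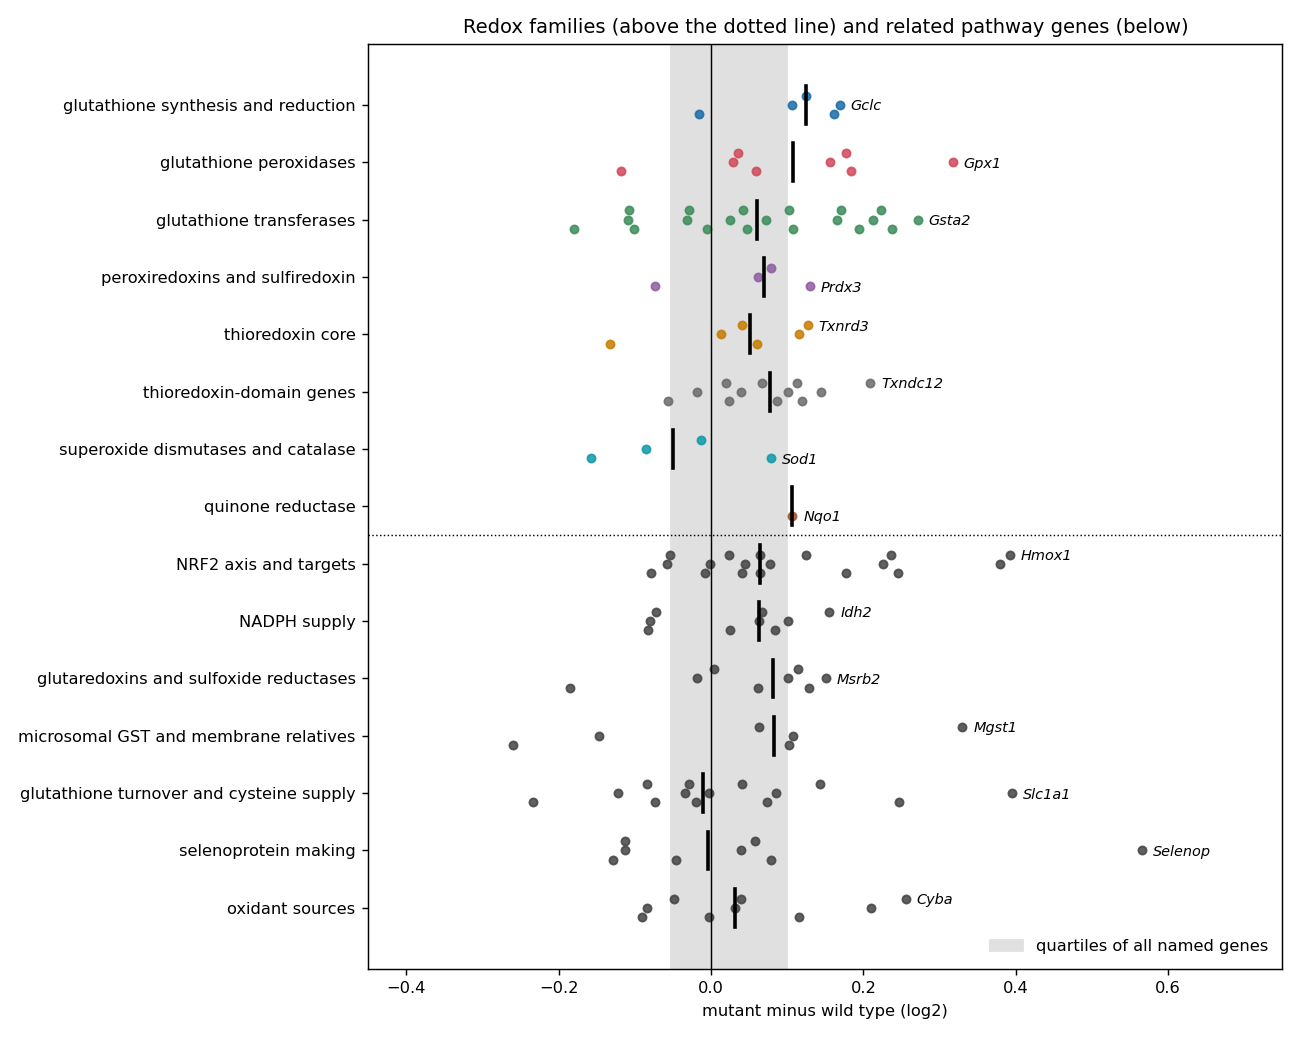
Mutant minus wild type difference on the log2 scale of each gene (points) by redox family and by related pathway list, with the median of each row (black bar), the quartiles of all named genes (grey band, -0.05 to 0.10) and the highest gene of each row named. The highest genes of the pathway lists include Selenop (0.57), Hmox1 (0.39) and Slc1a1 (0.39), each with an adjusted p of 1.00, and the highest of the 60 redox genes is Gpx1 (0.32).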

How the data were processed

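The deposited table holds log2 values per probe set. The authors made them with RMA according to the submitters' processing notes (its version, and any genome build, are not given in the sources used here). The method equalises the arrays' distributions and so removes changes in total signal. Retinas of 3 mice were pooled per array, per the series' design text. Of 45101 probe sets 64 controls were left out. Gene symbols were those of the platform annotation (34945 probe sets with 1 symbol, 932 with several, 9160 unnamed here).

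Groups followed the titles. The test was limma 3.58.1 (lmFit, eBayes, R 4.3.3) on group, adjusted by Benjamini-Hochberg over 45037 probe sets, and was tested on simulated data. Intervals are limma's 95% intervals. The p-values measure the spread between these pools. Deviations of same-numbered arrays correlated at 0.477, 0.469 and 0.563 over all probe sets, and the numbers were therefore treated as pairs, which the labels do not state. Between numbers 1 and 2 the deviations correlated at 0.125 and 0.175, and between number 3 and the others at -0.452 to -0.385. Alternatives were the block, filters on dim probe sets, quantile normalization, median centring, trend with robust fit, array weights, plain probe sets, gene means, a threshold of 0.10, and leaving out each array. Leaving out both arrays numbered 3 was added after seeing the data.

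Members and lists were chosen with earlier results of these data known. Named were members with an unadjusted p under 0.05, the 3 of smallest p per family and list, a fixed set of canonical members and the 6 brightest; further names, given as counts were listed or because a value stood out, were chosen after their values were seen. Promoters came from RefSeq. No set test was made. Python 3.11.15 and matplotlib 3.10.9 made tables and figures.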

Additional observations from a re-analysis of the deposited data

How the results depend on the processing

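Under each alternative run, 0 of the 60 redox genes (or of those left by a filter) had an adjusted p under 0.05 or under 0.10, and the smallest adjusted p of any was 0.219, with array weights and the replicate block. Over all probe sets 5 passed, 15 with the replicate block, 25 with array weights, 76 with both, 3 with plain probe sets, 16 without both arrays numbered 3, and 2 to 9 without single arrays. Redox genes higher at an unadjusted p under 0.05 numbered 1. They numbered 2 with the replicate block, 6 with array weights, 4 with both, 2 with gene means and 2 without both arrays numbered 3. They numbered 0 with either dim filter, quantile normalization, median centring or plain probe sets, and 0 to 2 without single arrays. No redox gene was lower at that threshold in any of these fits. The share of all genes at it, in either direction, was 3.42% in the main fit and 7.44% with the replicate block. It was 8.93% with array weights, 10.8% with both, 4.00% with gene means and 6.19% without both arrays numbered 3. With the filters, normalizations, plain probe sets or single arrays left out it was 2.39% to 5.29%. The redox genes' median difference of 0.07 was 0.0485 with gene means, 0.0476 without both arrays numbered 3, and 0.00711 to 0.12 without single arrays. Cdhr1 passed throughout, with differences of -7.27 to -6.95. Over the families and named genes, 919 of 959 repeated values moved by less than a set spread. For a gene this was the SD between arrays within groups, for a family the SD of its medians in the same-numbered pairs. The block, the dim filters and the trend with robust fit leave a gene's difference unchanged by design, so those gene values could not move. A shift within the spread can still change sign, as Gclc went from 0.17 to -0.16 without both arrays numbered 3. For the 14 genes below the median level, background limits what a difference can show. The replicate block changed no call of a redox gene.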
